A study of Mus musculus with 14 samples.

Results

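The cells compared here are melanoma-transcript-rich single cells from the blood of tumor-bearing mice, in 2 sorted classes that the labels name DP and CTC. A cell was included when Pmel, Dct, Tyrp1 and Mlana together reached 5000 CPM or more (counts divided by the cell's total and multiplied by 1000000), and when its sample held included cells of both classes. The cells were thus chosen by the measured levels of these 4 genes, and they number 163 DP cells and 27 CTC cells, which is 190 of the 648 cells of the series, from 5 of its 9 tumor-bearing samples and 14 samples in all. They are called tumor-high DP and tumor-high CTC cells below.

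Every included cell came from a female C57BL/6J mouse aged 6 to 8 weeks that had been injected with fluorescently labelled B16F10 cells and given no drug. B16F10 is a melanoma line of the same strain, selected for spread to the lung, so tumor and host share a genetic background. Cells were sorted on tumor and host markers and each read by Smart-seq2, in which a well of a plate yields a full-length cDNA library. CTC is the field's abbreviation for a circulating tumor cell. The labels do not expand DP or name the antibodies of the gate. The series title speaks of candidate hybrids between tumor cells and leukocytes. The 5 samples are tumor-bearing replicates 1, 2, 3, 5 and 6, labelled C1L, C1N, C1R, C2R and C3R. The labels do not say that samples are separate animals, so p-values measure the spread between these samples, which may be technical.

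Class II molecules of the major histocompatibility complex (MHC) present peptides from ingested proteins to CD4+ T cells. Each is a pair of an alpha and a beta chain that assembles with the invariant chain Cd74, and the peptide is loaded later with the help of H2-DM, which H2-DO restrains. B cells, dendritic cells and activated macrophages express class II genes under the transactivator Ciita, while most melanoma cells make it only after exposure to interferon gamma. Class II genes had differed between classes in earlier results of these data, so their appearance here is no independent evidence. Class II promoters carry a W-X-Y module, whose Y box is a CCAAT element read in reverse.

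Promoters are shown for those classical alpha and beta chain genes that had an entry. H2-Aa and H2-Eb1 belong to different isotypes and are not each other's partner chain. The differences of these genes did not pass. Each line gives the 250 bases before the RefSeq start in GRCm38.p6, 5′ to 3′ on the gene's own strand, with matches to GATTGG or its reverse complement CCAATC in capitals. H2-Aa lies at chr17:34287824-34288073 on the minus strand and H2-Eb1 at chr17:34305617-34305866 on the plus strand.
H2-Aa: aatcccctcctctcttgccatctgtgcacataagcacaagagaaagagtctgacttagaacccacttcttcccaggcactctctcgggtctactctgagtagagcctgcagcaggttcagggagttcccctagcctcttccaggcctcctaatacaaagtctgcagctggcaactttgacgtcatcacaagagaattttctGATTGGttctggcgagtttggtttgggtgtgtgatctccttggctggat
H2-Eb1: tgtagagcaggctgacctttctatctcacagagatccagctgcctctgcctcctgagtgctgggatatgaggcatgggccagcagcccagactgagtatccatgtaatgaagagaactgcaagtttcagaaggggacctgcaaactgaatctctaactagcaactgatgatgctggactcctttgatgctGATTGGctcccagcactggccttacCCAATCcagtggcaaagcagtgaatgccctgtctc
The match begins 49 bases before the start of H2-Aa, and the matches of H2-Eb1 begin 60 bases before the start and, as the reverse complement, 35 bases before it. The same 6 letters occurred on either strand in 8 of 9 class II promoters in the table (88.9%), which belong to 8 genes of the 11 listed, and in 14.6% of all 32851 promoters of that length. A match describes these letters and not a bound site.

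The classes met the rule at unequal rates. In the 5 samples 163 of 198 blood DP cells and 27 of 28 blood CTC cells met it. Of 28 blood WBC cells from 6 tumor-bearing samples 0 met it, which allows a share of up to 12.3% (exact 95% binomial bound). Among DP cells the share was 90.9%, 54.5%, 91.3%, 100% and 75.3% in replicates 1, 2, 3, 5 and 6. The 3 cells just inside the limit had 5023, 5627 and 6770 CPM of the 4 genes, all DP of replicate 6, and the 3 just outside had 4942 CPM (DP of replicate 2), 4429 CPM (CTC of replicate 6) and 4322 CPM (DP of replicate 6).

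The 190 cells held 4747266 to 53157339 counts each. The median was 18.2 Mcounts (megacounts) in DP cells and 18.3 Mcounts in CTC cells, and the within-sample difference of log2 medians was -0.06 on average (exact two-sided sign-flip test over 5 samples, p = 0.5625). Cell numbers differed far more than depth: replicates 1, 2, 3, 5 and 6 gave 30, 12, 21, 39 and 61 DP cells and 3, 5, 11, 4 and 4 CTC cells. Cells are not replicates, so counts were summed per sample and class. This gave DP sums of 339484901 to 1130964211 counts and CTC sums of 50881339 to 188060543 counts. Summing does not even out the numbers of cells. CPM of a sum were scaled by TMM, which corrects for differences in composition. Within-sample medians of detected genes averaged 315.7 more in DP cells (exact p = 0.125, higher in 4 of 5 samples). With every cell thinned to 1000000 counts, the difference was 312.5 genes (exact p = 0.063, the smallest 5 samples can give, higher in 5 of 5 samples).

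The genes of the rule were similar in level between the classes, as values that chose the cells and are not tested. Pmel, the amyloid scaffold of melanosomes, averaged 7714 ± 2725 CPM in DP sums and 7492 ± 3331 CPM in CTC sums (SD, n = 5 each). Dct, an enzyme of eumelanin synthesis, averaged 8883 ± 1878 CPM in DP and 8506 ± 2023 CPM in CTC sums. Tyrp1, another eumelanin enzyme, averaged 9959 ± 3979 CPM in DP and 8358 ± 2730 CPM in CTC sums, and Mlana, a melanosome membrane protein, 1370 ± 218 CPM in DP and 1245 ± 578 CPM in CTC sums. Replicate 6 stood apart in both classes, with a median cell at 14512 CPM of the 4 genes in DP and 13262 CPM in CTC, against 24805 to 35952 CPM in DP and 21524 to 29246 CPM in CTC of the other samples.

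Across all genes a single one passed. Of 11550 genes tested, Cd74 alone (0.00866%) differed at an adjusted p under 0.05, and it was higher in DP (edgeR quasi-likelihood test with the sample as a block and Benjamini-Hochberg adjustment). No gene was lower in DP (0%). At an unadjusted p under 0.05 there were 586 genes higher in DP (5.07%) and 162 lower (1.4%). DP sums pooled 12 to 61 cells and CTC sums 3 to 11, and an effect of this on the direction of differences was not tested. DESeq2 on the same sums called 819 genes (7.09%), of which 798 were higher (6.91%) and 21 lower (0.182%), so the count depends strongly on the tool. The median log2 difference, DP minus CTC, of all genes tested was 0.13, with quartiles of -0.12 and 0.72, and differences are best read against that centre.

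Cd74, on chromosome 18, encodes the invariant chain that guides class II molecules from the endoplasmic reticulum to the peptide-loading compartment. It had 170.5, 530.5, 259.5, 293.8 and 55.9 CPM in DP sums of replicates 1, 2, 3, 5 and 6, against 4.55, 3.60, 2.87, 6.87 and 0.74 CPM in CTC sums. Every DP sum lay above every CTC sum, although DP of replicate 6 stood well below the other DP sums. The log2 difference was 6.12 ± 0.35 (SE, adjusted p = 0.00182 by edgeR). Leaving out each sample in turn kept its adjusted p between 0.00738 and 0.0258. Blood WBC cells averaged 7736 ± 6366 CPM (SD, n = 6 samples), and the 22 B16F10 cells of the cultured control, summed, had 3.79 CPM.

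The classical class II chains showed similar differences and did not pass. H2-Ab1, a beta chain at chr17:34257689-34269419 (GRCm38), had 175.3, 241.7, 180.5, 178.7 and 18.5 CPM in DP sums of replicates 1, 2, 3, 5 and 6, against 1.86, 0.21, 0.94, 0.48 and 0.43 CPM in CTC sums. The groups did not overlap, and again DP of replicate 6 was the lowest of the DP sums. Its log2 difference was 7.62 ± 0.77 (SE, edgeR adjusted p = 0.0604), and it passed when replicate 6 was left out (adjusted p = 0.0454). It also passed in other alternatives, such as thinned cells (edgeR adjusted p = 0.00188) and no filter on low counts (edgeR adjusted p = 0.0112).

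H2-Aa, the alpha chain that pairs with H2-Ab1, at chr17:34282744-34287823, had 107.5, 253.6, 110.5, 148.4 and 18.7 CPM in DP sums of the same replicates, against 2.45, 0.16, 0.87, 0.20 and 0.31 CPM in CTC sums. H2-Eb1, the beta chain of the second class II isotype, at chr17:34305867-34316674, had 141.4, 179.0, 87.7, 120.8 and 21.3 CPM in DP sums, against 1.995, 0.15, 1.13, 0.13 and 0.31 CPM in CTC sums. For both genes the groups did not overlap and replicate 6 was lowest among DP. The log2 differences were 7.54 ± 0.95 for H2-Aa (edgeR adjusted p = 0.153) and 7.52 ± 0.89 for H2-Eb1 (edgeR adjusted p = 0.126). The plot of class II and reference genes by sample shows these pairs beside leukocyte and pigment genes.

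**Figure D1:**
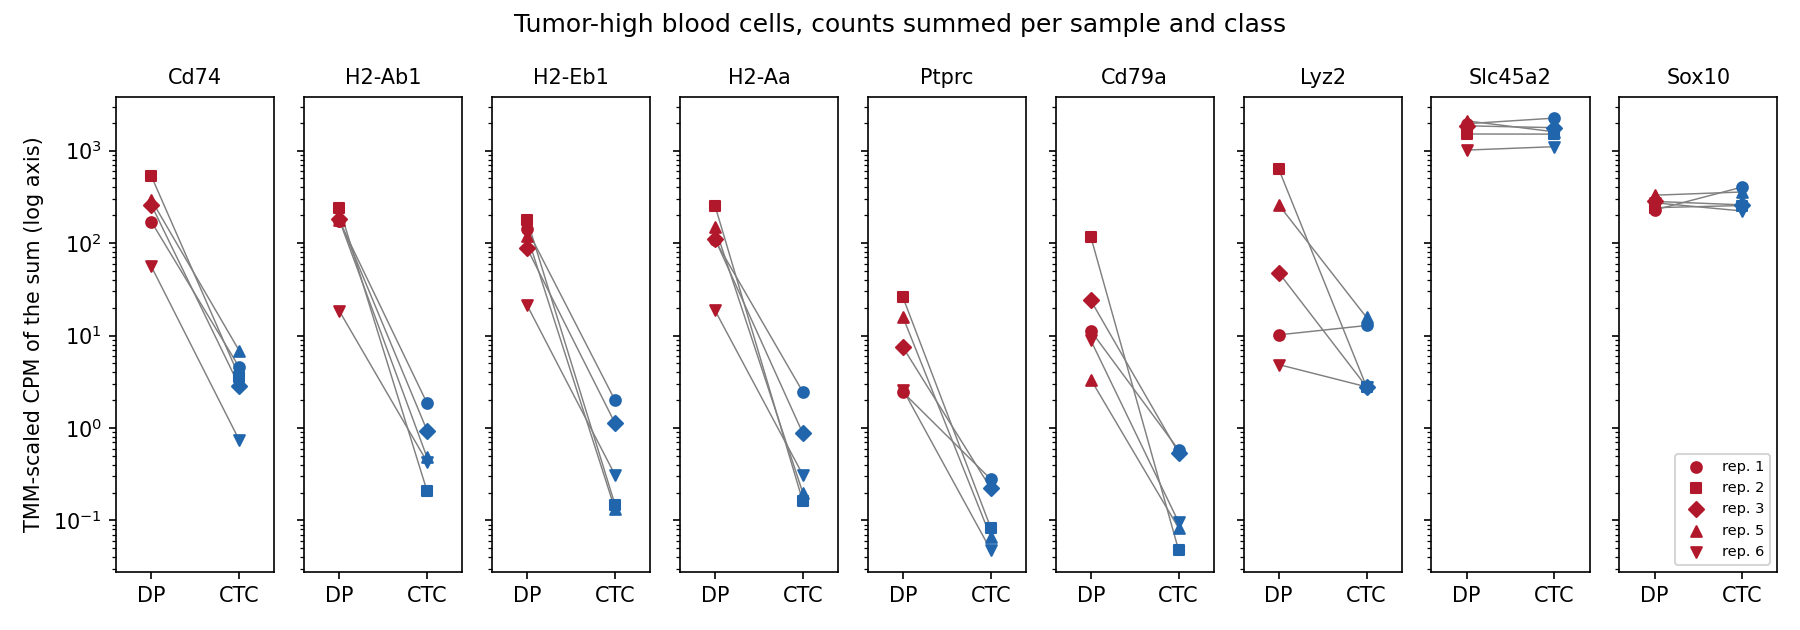
TMM-scaled CPM of each sum (log axis) for 9 genes, with tumor-high DP in red on the left and tumor-high CTC in blue on the right of each panel, symbols for the 5 replicates and lines joining the classes of a sample. The 4 class II genes lie at 18.5 to 530.5 CPM in DP and at 0.13 to 6.87 CPM in CTC without overlap, while Slc45a2 and Sox10 stand at similar levels in both classes.

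The loading and regulatory genes of the pathway did not pass. Ciita, the transactivator of class II genes, had 1.83, 8.46, 1.12, 5.32 and 1.01 CPM in DP sums of replicates 1, 2, 3, 5 and 6, against 0.05 CPM in CTC of replicate 3 and 0 in the other CTC sums. The groups did not overlap, but the CTC side rests on 9 counts in all. The fitted log2 difference of 10.52 ± 2.49 did not pass (edgeR adjusted p = 0.459). Of the H2-DM chains, which load peptide, H2-DMb2 averaged 14.5 ± 10.9 CPM in DP and 0.197 ± 0.220 CPM in CTC, with no overlap (log2 6.67 ± 1.33, edgeR adjusted p = 0.412). H2-DMa averaged 12.4 ± 8.20 CPM in DP and 1.63 ± 3.37 CPM in CTC, and H2-DMb1 11.96 ± 10.63 CPM in DP and 1.46 ± 3.25 CPM in CTC. In each of these a single CTC sum, replicate 3 for H2-DMa at 7.66 CPM and replicate 5 for H2-DMb1 at 7.28 CPM, reached the DP range. The H2-DO chains H2-Oa and H2-Ob averaged 1.86 ± 1.72 and 5.52 ± 5.83 CPM in DP, against 0.0203 ± 0.0346 and 0.0567 ± 0.0470 CPM in CTC. H2-Eb2 was too low to test, with 535 counts in DP and 3 in CTC.

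Over the class II list, 10 of 11 members could be tested, 1 was higher and 0 were lower by edgeR, and the median log2 difference was 7.47, beside 0.13 over all genes. All 10 were higher at an unadjusted p under 0.05, as were 5.07% of all genes, and by DESeq2, as were 6.91% of all genes. Groups did not overlap for 6 of the 10 (H2-Aa, H2-Ab1, H2-Eb1, Cd74, H2-DMb2 and Ciita), where every DP sum exceeded every CTC sum. Over all genes 214 of 11550 had that pattern (1.85%), and 25 the opposite one (0.216%). Members that passed the filter on low counts mainly through their DP sums had to differ, so these counts describe the list and are not offered as evidence for it.

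The class II signal of DP came from few cells. The 4 genes H2-Aa, H2-Ab1, H2-Eb1 and Cd74 summed to 100 CPM or more in 21 of 163 DP cells (12.9%, exact 95% interval 8.16% to 19.0%) and in 0 of 27 CTC cells. The count of 0 allows a share of up to 11.1% (3 of 27 cells) or, as an exact binomial bound, 12.8%, so 27 cells cannot show that class II-high cells are absent among CTC. The 21 cells were spread over the samples, with 5, 4, 3, 4 and 5 in replicates 1, 2, 3, 5 and 6. The within-sample difference of shares averaged 16.5 percentage points, positive in 5 of 5 samples (exact two-sided sign-flip test, p = 0.063, the smallest that 5 samples allow). The limit of 100 CPM was an alternative setting of this result, whose main limit was 10 CPM. Intervals treat cells as independent and cover counting error only.

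The intervals of the shares overlapped at 100 CPM (8.16% to 19.0% in DP, up to 12.8% in CTC) and also at the main limit of 10 CPM. The sum reached 10 CPM in 46 of 163 DP cells (28.2%, 21.5% to 35.8%) and in 6 of 27 CTC cells (22.2%, 8.62% to 42.3%), a mean within-sample difference of 5.98 percentage points (exact p = 0.4375, positive in 3 of 5 samples). The typical cell of either class carried a trace of Cd74, with a median of 0.974 CPM in DP cells and 1.33 CPM in CTC cells. Some Cd74 counts were present in 139 of 163 DP cells and in 25 of 27 CTC cells. The highest CTC cell had a class II sum of 24.1 CPM and the highest of 22 cultured B16F10 cells 71.8 CPM, while 16 of 28 blood WBC cells reached 100 CPM.

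**Figure D2:**
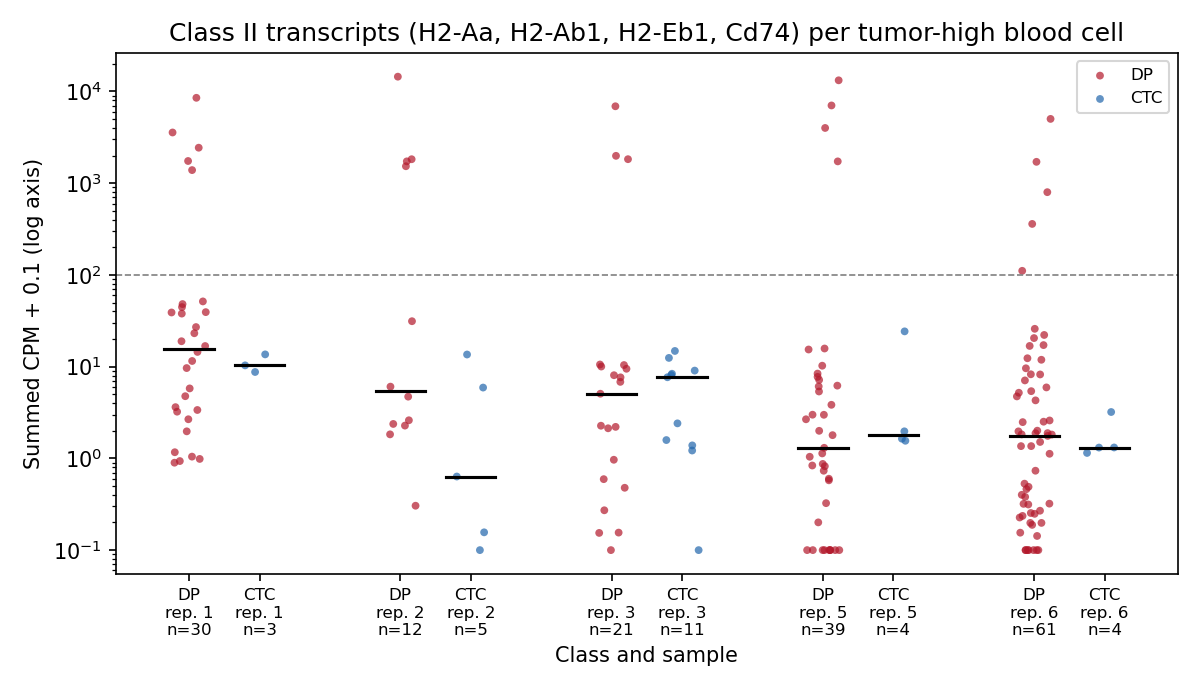
Summed CPM of H2-Aa, H2-Ab1, H2-Eb1 and Cd74 in each tumor-high blood cell (log axis, 0.1 added), by sample and class, with DP in red left of CTC in blue, bars at medians and a dashed line at 100 CPM. In each of the 5 samples 3 to 5 DP cells lie above the line and no CTC cell does, while the bulk of both classes lies below 100 CPM.

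Within the DP sums, the 21 class II-high cells supplied 97.0% to 99.9% of the counts of each of the 4 genes in each sample. A single cell supplied 33.3% to 76.3%. In replicate 2 the top cell held 69.5% of the Cd74 counts, and in replicate 1 the share of the top cell was 33.3%. The sums of the 4 genes in these cells ran from 110.7 to 14480 CPM with a median of 1825 CPM, against 0 to 51.3 CPM with a median of 1.87 CPM in the other 142 DP cells. The split used these same genes, so the gap between the 2 sets of cells is a description. It was wide: no DP cell lay between 51.3 and 110.7 CPM.

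Class II-high DP cells were rich in melanoma transcripts like the rest, as the rule required of every included cell. Their median sum of the 4 melanoma genes was 28391 CPM, against 23713 CPM in other DP cells and 23282 CPM in CTC cells. Their median depth was 18.9 Mcounts, against 18.2 Mcounts in other DP cells, and their median of detected genes 9091, against 8824. These values are over cells pooled from the samples and carry no test.

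Leukocyte transcripts were present in most class II-high cells. Summed CPM of Ptprc, Cd52, Cd53, Coro1a and Laptm5 reached 100 in 17 of the 21 class II-high DP cells, in 2 of the other 142 DP cells and in 0 of 27 CTC cells. Summed over Cd79a, Cd79b and Ms4a1, parts of the B cell receptor complex and the CD20 antigen, 9 of the 21 cells reached 100 CPM. The macrophage-associated genes Lyz2, Csf1r and C1qb summed to 100 CPM in 6 of the 21 and also in 5 of the other 142 DP cells, so not every cell at that limit was class II-high. In the counts summed per sample, Lyz2 averaged 191 CPM in DP, against 5.01 CPM for Csf1r and 4.48 CPM for C1qb. The B cell and macrophage sums both reached 100 CPM in 2 of the 21 and at least 1 of them did in 13. In 2 of the 21, both of replicate 6, the leukocyte, B cell and macrophage sums all stayed under 10 CPM. Those cells had the lowest class II sums of the 21, at 110.7 and 359.4 CPM.

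By class, 19 of 163 DP cells (11.7%, 7.17% to 17.6%) and 0 of 27 CTC cells had a leukocyte sum of 100 CPM or more, a mean within-sample difference of 15.7 percentage points (exact p = 0.063, positive in 5 of 5 samples). This share was not among the main results chosen for the comparison. All 28 blood WBC cells passed that limit, with a median of 5150 CPM, against a median of 258.3 CPM in the class II-high DP cells. When the DP cells at or over the leukocyte limit were left out, Cd74 had a log2 difference of 1.76 ± 1.28 (edgeR adjusted p = 0.998), no gene passed, and the median of the class II list was 2.27. No doublet caller was run.

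**Figure D3:**
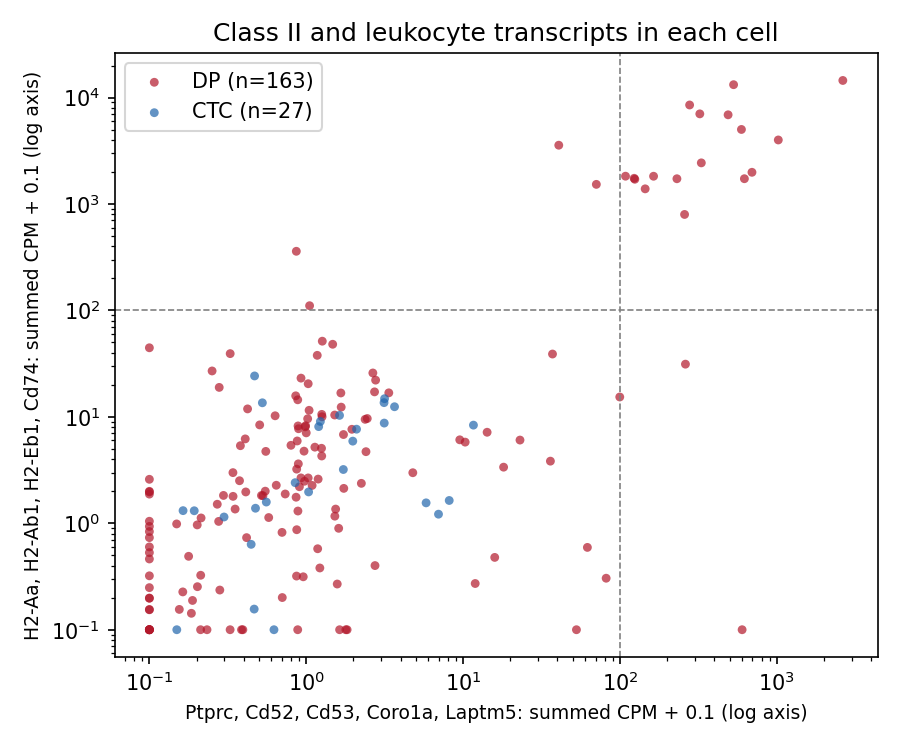
Summed CPM of the 4 class II genes (vertical) against that of the 5 leukocyte genes (horizontal) in each tumor-high blood cell, both on log axes with 0.1 added, DP in red and CTC in blue, dashed lines at 100 CPM. Of the 21 DP cells above the horizontal line, 17 lie right of the vertical one, and all 27 CTC cells lie below and left of both.

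Leukocyte genes did not pass in the sums. Ptprc, the pan-leukocyte phosphatase CD45, had 2.44, 25.9, 7.48, 15.9 and 2.61 CPM in DP sums of replicates 1, 2, 3, 5 and 6, against 0.28, 0.08, 0.22, 0.07 and 0.05 CPM in CTC sums. The groups did not overlap, a pattern of 1.85% of all genes, with replicate 2 highest among DP. The log2 difference of 6.05 ± 1.41 did not pass (edgeR adjusted p = 0.459). Of the 12 pan-leukocyte members, all tested, 0 passed by edgeR, and the median log2 difference was 5.48. Beside 5.07% and 6.91% of all genes, 10 of the 12 were higher at an unadjusted p under 0.05 and by DESeq2. The other members were Arhgdib, an inhibitor of small GTPases, at 861 ± 70.7 CPM in DP and 823 ± 120 CPM in CTC (log2 0.07 ± 0.10), and the phosphatase gene Ptpn6 at 77.5 ± 13.7 CPM in DP and 73.9 ± 20.2 CPM in CTC (0.09 ± 0.21). Both were also present in cultured B16F10 cells, at 918.9 and 24.7 CPM. Arhgdib held most of the list's CPM, and the summed level of the list ran from 936 to 1289 CPM in DP sums and from 819 to 1116 CPM in CTC sums.

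B cell markers had their highest DP value in replicate 2. Cd79a, a signalling chain of the B cell receptor, had 11.3, 116.9, 24.0, 3.34 and 8.88 CPM in DP sums of replicates 1, 2, 3, 5 and 6, against 0.58, 0.05, 0.54, 0.08 and 0.10 CPM in CTC sums. No DP sum fell within the CTC range, and the log2 difference of 6.17 ± 1.17 did not pass (edgeR adjusted p = 0.412). Of 10 B cell members 9 were tested, 0 passed by edgeR, 6 were higher at an unadjusted p under 0.05 and 5 of these by DESeq2 (Cd79a, Cd79b, Ms4a1 and Cd22 among them), with a median of 5.55. Over all genes 5.07% were higher at an unadjusted p under 0.05, 6.91% by DESeq2, and 1.85% lacked overlap in that direction. Ighm was not analysed here. As with class II, members of the leukocyte, B cell, myeloid, platelet and checkpoint lists that passed the filter on low counts mainly through DP sums had to differ, so the counts of members called are descriptions. The summed list ran from 15.4 to 343.2 CPM in DP sums and from 0.23 to 2.21 CPM in CTC sums.

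Monocyte and macrophage markers were uneven between samples. Lyz2, the lysozyme of myeloid cells, had 10.2, 632.7, 48.0, 259.6 and 4.85 CPM in DP sums of replicates 1, 2, 3, 5 and 6, against 12.9, 2.79, 2.79, 15.7 and 2.79 CPM in CTC sums. The groups overlapped, since DP of replicates 1 and 6 lay within the CTC range (log2 3.20 ± 1.25, edgeR adjusted p = 0.729). Of the 13 members, all tested, 0 passed by edgeR, and 5 were higher at an unadjusted p under 0.05 and by DESeq2 (Lyz2, Mpeg1, Ctss, Tyrobp and Fcer1g), with a median of 1.45. Tyrobp, an adaptor of activating receptors, was the only one without overlap (21.4 ± 24.8 CPM in DP, 0.395 ± 0.237 CPM in CTC). Among all genes 1.85% lacked overlap in that direction, 5.07% were higher at an unadjusted p under 0.05 and 6.91% by DESeq2. The summed list ran from 23.4 to 871.3 CPM in DP and from 9.10 to 40.4 CPM in CTC.

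Other leukocyte lineages gave no call. Of 9 T and NK cell markers none could be tested, and their sum was at most 1.01 CPM in any DP sum and 0.25 CPM in any CTC sum. Of 8 dendritic cell markers only Zbtb46 was tested (log2 2.59, not past). Their sum ran from 10.1 to 66.3 CPM in DP sums and from 0.04 to 5.43 CPM in CTC sums, without overlap. The list summed to 14.5 CPM in cultured B16F10 cells, within the DP range, with Zbtb46 at 14.5 CPM there. Siglech of plasmacytoid dendritic cells had 40.2 CPM in DP of replicate 2. Of 9 neutrophil markers 2 were tested, with 0 past and a median of 4.91, and their sum reached 117.5 CPM in DP of 1 sample, against at most 2.31 CPM in CTC. None of the dendritic cell, T and NK cell or neutrophil members was called by DESeq2 or at an unadjusted p under 0.05.

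Platelet and erythroid transcripts were sparse, and none of their genes passed. Ppbp, a platelet chemokine, had 9.29, 0.03, 18.02, 13.8 and 0.72 CPM in DP sums of replicates 1, 2, 3, 5 and 6, against 0.01 CPM in CTC of replicate 3 and 0 in the other CTC sums. The CTC value rests on 2 counts, so the ratio over all cells of 1938 has a counting interval of 536 to 16004, and the gene was too sparse to test. That interval covers the counting of reads and not the sampling of cells. Ppbp counts were seen in 51 of 163 DP cells (31.3%, 24.3% to 39.0%) and in 1 of 27 CTC cells (3.70%, 0.0937% to 19.0%). Pf4, another platelet chemokine, was seen in 105 DP cells and 16 CTC cells, at 7.34 ± 5.35 CPM in DP and 0.190 ± 0.110 CPM in CTC (log2 5.26 ± 1.45, edgeR adjusted p = 0.522). Of 8 platelet members 4 were tested, 0 passed by edgeR, and 3 were higher at an unadjusted p under 0.05 and by DESeq2 (Pf4, Itga2b and Gp9). The shares of all genes were 5.07% and 6.91%. The remaining tested member, Itgb3, averaged 10.6 ± 3.57 CPM in DP and 11.8 ± 4.32 CPM in CTC (log2 -0.13 ± 0.66). Cultured B16F10 cells, summed, had 13.3 CPM of Itgb3. The median of the tested members, 8.06, became 7.16 with Gp9, which had 0 CTC counts, set at its lower bound.

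Hba-a1, an alpha globin of red cells, was seen in 44 DP cells and in 0 of 27 CTC cells, which allows a CTC share of up to 12.8%. Its pooled level in DP was 487-fold that of a floor of 3 counts over all CTC cells. This floor covers the counting of reads and not the sampling of 27 CTC cells, so it does not bound the difference between the classes. None of the 6 erythroid members could be tested, and DP of replicate 2 had no Hba-a1 counts. Their sum ran from 0.48 to 8.41 CPM in DP, against 0 to 0.01 CPM in CTC. Blood WBC cells had 1514 ± 1272 CPM of Pf4, but 0.00240 ± 0.00588 CPM of Ppbp and 0.0764 ± 0.130 CPM of Hba-a1 (SD, n = 6 samples).

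Stromal and epithelial markers gave no call. Of 7 endothelial members 1 was tested (Egfl7, log2 0.39), and Pecam1 and Esam were seen mainly in DP of replicates 2 and 3. Of 9 fibroblast and matrix members 3 were tested, with a median of 1.61, 0 past, 1 higher at an unadjusted p under 0.05 (Sparc) and 0 by DESeq2. The corresponding shares of all genes were 5.07% and 6.91%. Sparc, a matrix protein that melanoma cells also make, averaged 743.7 ± 208.9 CPM in DP and 589.4 ± 144.3 CPM in CTC (log2 0.33 ± 0.10, higher in 5 of 5 samples, edgeR adjusted p = 0.595). None of 7 epithelial members was tested, and Cdh1 counts occurred in 20 DP cells and 0 CTC cells.

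No class I gene passed. B2m, the light chain of every class I molecule, had 696.0, 660.6, 497.7, 610.1 and 414.9 CPM in DP sums of replicates 1, 2, 3, 5 and 6, against 897.6, 483.2, 704.9, 572.2 and 461.5 CPM in CTC sums. The groups overlapped, and the log2 difference was -0.10 ± 0.15 (edgeR adjusted p = 0.981). H2-K1, a classical heavy chain, averaged 144.6 ± 51.7 CPM in DP and 94.5 ± 65.5 CPM in CTC and was higher in 5 of 5 samples (log2 0.79 ± 0.29, adjusted p = 0.712 by edgeR). H2-D1, the other one, averaged 298.7 ± 51.4 CPM in DP and 241.9 ± 149.5 CPM in CTC (log2 0.47 ± 0.24). Of the 13 members, all tested, 0 passed by edgeR, 4 were higher at an unadjusted p under 0.05 (H2-K1, H2-Q4, H2-Q7 and Psmb8) and 3 by DESeq2 (H2-Q7, Psmb8 and Nlrc5), with a median of 0.98. The shares of all genes were 5.07% and 6.91%. Class I genes are close paralogs, and reads can be split among them.

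Interferon-response genes gave no edgeR call. Of 12 members 10 were tested, 0 passed in either direction by edgeR, 0 had an unadjusted p under 0.05, 1 was higher by DESeq2 (Gbp2, 2.77 ± 2.66 CPM in DP and 3.45 ± 7.66 CPM in CTC, where the means run the other way), and the median was -0.01. By DESeq2 6.91% of all genes were higher. Ifitm3, an antiviral membrane protein, averaged 96.6 ± 23.9 CPM in DP and 96.8 ± 29.3 CPM in CTC (log2 0.01 ± 0.17). Ifi27 averaged 133.5 ± 39.0 CPM in DP and 136.5 ± 62.5 CPM in CTC, and Bst2, the virion tether, 82.8 ± 13.4 CPM in DP and 92.9 ± 30.0 CPM in CTC. Gbp3, an interferon-induced GTPase, was among the 5 genes with the smallest p on the higher side, at 6.39 ± 3.40 CPM in DP and 0.00672 ± 0.00984 CPM in CTC, and did not pass (log2 10.34 ± 1.70, edgeR adjusted p = 0.412). Plbd1, a lysosomal phospholipase of myeloid cells, was another (12.3 ± 11.6 CPM in DP, 0.0428 ± 0.0289 CPM in CTC, adjusted p = 0.412 by edgeR). Cultured B16F10 cells, summed, had 9.93 CPM of Gbp3, above its DP mean, and 0.0214 CPM of Plbd1.

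The melanoma programme outside the rule gave no call. Slc45a2, a melanosomal transporter, had 1958, 1514, 1856, 2100 and 1015 CPM in DP sums of replicates 1, 2, 3, 5 and 6, against 2250, 1510, 1774, 1598 and 1105 CPM in CTC sums. Replicate 6 was lowest in both classes, and the log2 difference was 0.03 ± 0.11. Gpnmb, a melanosomal glycoprotein, averaged 4898 ± 1561 CPM in DP and 4825 ± 1383 CPM in CTC. Of 12 pigment genes outside the rule, all tested, and 7 of 8 melanocyte regulators tested, 0 passed by edgeR, by DESeq2 or at an unadjusted p under 0.05, with medians of 0.17 and 0.19. Sox10, a neural crest and melanocyte factor, averaged 271.1 ± 39.7 CPM in DP and 299.8 ± 77.2 CPM in CTC (log2 -0.12 ± 0.17), and Mitf, the melanocyte master regulator, 204.3 ± 65.0 CPM in DP and 186.7 ± 68.7 CPM in CTC (0.19 ± 0.16).

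Cell cycle and metabolic genes gave no call either. Of 12 DNA replication genes, all tested, 0 passed by edgeR, by DESeq2 or at an unadjusted p under 0.05, with a median of -0.00, and Mcm2, a helicase subunit, averaged 572.7 ± 153.7 CPM in DP and 553.3 ± 204.8 CPM in CTC. Of 12 mitosis genes, all tested, 0 passed by edgeR or DESeq2 and 1 was lower at an unadjusted p under 0.05 (Ccnb2), with a median of -0.24. Among all genes 1.4% were lower at that p. Mki67, a marker of cycling cells, averaged 157.6 ± 48.8 CPM in DP and 221.8 ± 145.0 CPM in CTC (log2 -0.33 ± 0.24), with the highest CTC sum in replicate 5 at 448.8 CPM. Of 14 hypoxia and glycolysis genes, all tested, 0 passed by edgeR or DESeq2 and 1 was higher at an unadjusted p under 0.05 (Car9), with a median of 0.14. Among all genes 5.07% were higher at that p. Car9, a hypoxia-induced carbonic anhydrase, averaged 432.8 ± 189.8 CPM in DP and 248.7 ± 150.6 CPM in CTC, higher in 5 of 5 samples (log2 0.93 ± 0.25, edgeR adjusted p = 0.495). Of 11 oxidative phosphorylation genes, all tested, 0 passed by edgeR, by DESeq2 or at an unadjusted p under 0.05, with a median of -0.09. Ldha, lactate dehydrogenase, averaged 6741 ± 593 CPM in DP and 6668 ± 1366 CPM in CTC.

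No gene of stress or mesenchymal state passed by edgeR. Of 11 immediate early genes, all tested, 1 was higher at an unadjusted p under 0.05 (Fosb) and 3 by DESeq2 (Fosb, Atf3 and Dusp1), with a median of 0.46. The means of Atf3 ran the other way, at 12.4 ± 12.1 CPM in DP and 20.1 ± 28.5 CPM in CTC, and Fos averaged 105.9 ± 57.2 CPM in DP and 78.5 ± 44.7 CPM in CTC. Of 7 heat shock genes 4 were tested, with a median of -0.09 and no call by either tool or at an unadjusted p under 0.05. Of 10 mesenchymal transition genes 7 were tested, with a median of 0.18, and S100a4, a calcium-binding protein of motile cells and leukocytes, was higher at an unadjusted p and by DESeq2 (15.6 ± 12.8 CPM in DP, 2.69 ± 2.60 CPM in CTC, edgeR adjusted p = 0.595). Higher in DP were 5.07% of all genes at an unadjusted p under 0.05 and 6.91% by DESeq2.

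No surface or fusion gene passed by edgeR. Of 8 checkpoint and don't-eat-me genes 7 were tested, 0 passed by edgeR, 3 were higher at an unadjusted p under 0.05 (Pdcd1lg2, Cd24a and Cd86) and 3 by DESeq2 (Cd274, Cd24a and Cd86), with a median of 5.64. Cd86, a costimulatory ligand of antigen-presenting cells, averaged 3.96 ± 1.88 CPM in DP and 0.0283 ± 0.0397 CPM in CTC, with no overlap (edgeR adjusted p = 0.428), while Cd47, the don't-eat-me ligand, averaged 81.7 ± 21.1 CPM in DP and 57.8 ± 26.2 CPM in CTC (log2 0.64 ± 0.42). Of 11 surface and adhesion genes 9 were tested, 0 passed by edgeR, 3 were higher at an unadjusted p under 0.05 (Itgal, Selplg and Icam1) and 4 by DESeq2 (the same and Itgb2), with a median of 1.58. For all genes the shares were 5.07% at the unadjusted p, 6.91% by DESeq2 and 1.85% for DP sums above CTC sums without overlap. Of 8 fusion-associated genes 5 were tested, with a median of 0.20 and no call by either tool or at an unadjusted p under 0.05, and the fusogen genes Dcstamp and Ocstamp had no counts in CTC and were too low to test. Cxcr4, a chemokine receptor, had 629 counts in 12 DP cells and 0 in CTC cells.

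**Figure D4:**
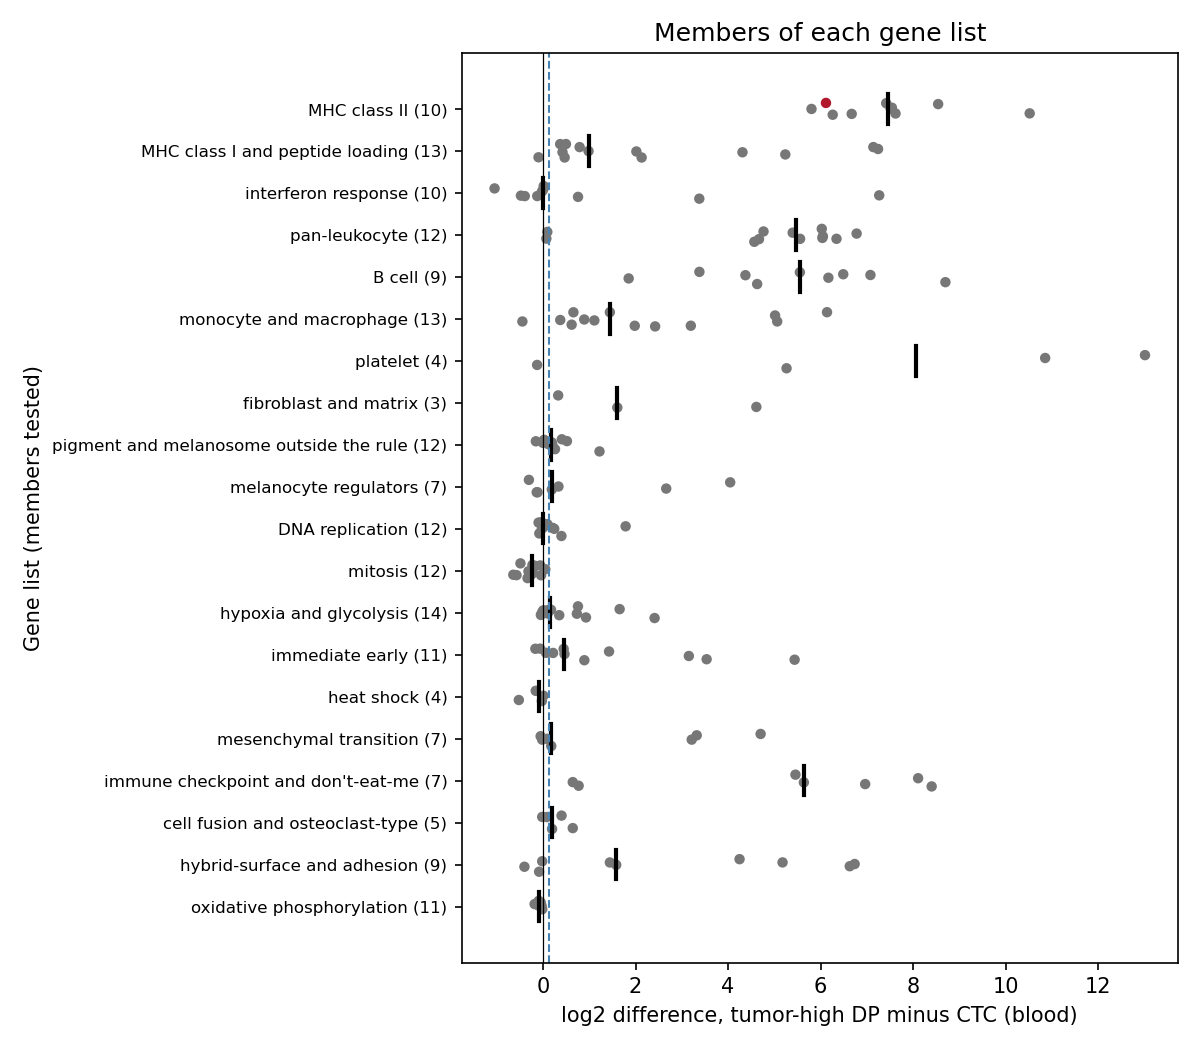
Log2 difference, DP minus CTC, of each tested member of the gene lists with at least 3 tested members, with black ticks at list medians, the dashed line at the median of all genes (0.13) and Cd74, which alone passed, in red. Class II members lie between 5.80 and 10.52, most leukocyte and B cell members lie right of the dashed line, and list medians of pigment, cell cycle, glycolysis and oxidative phosphorylation genes lie between -0.24 and 0.19.

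No gene was lower in DP past the threshold. Among the 5 with the smallest p on that side were Rlim, Ap3b1, Akap8 and Lrsam1, each with an edgeR adjusted p of 0.495. Ap3b1, a subunit of the adaptor that sorts melanosome cargo, averaged 94.0 ± 22.96 CPM in DP and 146.0 ± 55.1 CPM in CTC, lower in 5 of 5 samples (log2 -0.59 ± 0.15).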

How the data were processed

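Counts per gene and cell (21138 genes, 648 cells) were deposited by the authors as raw whole numbers. Per the submitters' processing notes, reads were handled with Trim Galore, HISAT2, SAMtools and featureCounts on mm10, and BWA and Picard are also named. Their versions are not given in the sources at hand. Beside the counts, the deposited relation file gives each cell's library as other text, and cell names give tissue and class. No column of another sample was present (0), no cell name occurred in more than 1 library (0), and no pair of cells had identical counts (0). Coordinates are from GENCODE vM21 (GRCm38), promoters from RefSeq (GRCm38.p6).

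Counts of included cells were summed per sample and class, which are separate sorts of the same labelled sample, so the sample was a block. Over 7908 genes, same-sample deviations correlated at a median of 0.135 (0.0877 to 0.198, over 0.1 in 4 of 5 samples), against -0.0493 for different samples. Deviations were from class means, so positive same-sample values tend to make the others negative by construction, and these are no independent baseline. The test was the quasi-likelihood one of edgeR 4.0.16 (TMM, filterByExpr, Benjamini-Hochberg at 0.05) with limma 3.58.1 in R 4.3.3. The alternative tool was DESeq2 1.42.0. SE is the absolute log2 difference divided by the square root of F. CPM of sums are TMM-scaled, while CPM of cells and of WBC and B16F10 use the plain total. Counts of samples higher or lower used log2(CPM + 0.1). Shares have exact binomial intervals, and exact sign-flip tests ran over 5 within-sample differences. Intervals and floors (3 counts) cover counting error only, since PCR copies were not marked. Depth per sum limits CTC most. Python 3.11.15, NumPy 2.4.6, pandas 2.3.3, SciPy 1.17.1 and Matplotlib 3.10.9 were used.

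The cells, the 26 lists (254 genes) and the tests were chosen with earlier results of these data known, and list symbols were matched to the count table through RefSeq synonyms. Genes were named by rule: up to 10 past the threshold per direction averaging 20 CPM or more and of one sign in 5 of 5 samples, or, where fewer than 5 passed, those and the 5 with the smallest p; every class II member; up to 3 members per other list with the highest mean CPM; and 8 fixed genes. Other members named, such as Cd86 and S100a4, were chosen after their values were seen. The fit was also run on simulated counts for this comparison (11480 genes). It recovered 59.2% of 98 genes changed by log2 3 and 79.2% of 96 changed by log2 6, and 4 of 138 calls were of unchanged genes. The simulation had no sample effect and changed every DP sum alike. Its recovery therefore does not give the power for genes whose DP counts come from few cells. Alternatives covered scaling, tool, filters, block, marker minimum, thinning, leukocyte-bearing cells, lung cells and each sample left out. The DNA reads were not analysed here. Some genes that the rule or a list would name are not reported here.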

Additional observations from a re-analysis of the deposited data

Results flagged for a closer look

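Within-sample log2 differences, DP minus CTC, of the named genes and other within-sample quantities gave 80 groups of 5 samples that were checked for a sample far from the other 4, and chance alone would mark about 1 in 20. H2-DMb2 had 8.04 in replicate 2, against 4.74 to 5.47 in the others. Cd79a had 9.63 in replicate 2, against 4.07 to 5.52. Pf4 had 1.34 in replicate 6, against 4.57 to 5.43. Egfl7, an endothelial secreted factor, had 2.44 in replicate 1, against -0.41 to 0.32. Aldoa, a glycolytic enzyme, had -0.19 in replicate 6, against 0.03 to 0.10, and Sdhb, a subunit of respiratory complex II, had -0.36 in replicate 1, against -0.08 to 0.03.

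Tumor-high blood DP cells also occurred in 2 samples without CTC, which the comparison could not use. In replicate 7, 1 of 11 such cells had a class II sum of 100 CPM or more, and in replicate 9, 5 of 15 had one (33.3%, exact 95% interval 11.8% to 61.6%), against 0 of 27 CTC cells and 0 of 22 cultured B16F10 cells. All of them also had a leukocyte sum of 100 CPM or more.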

How the results depend on the processing

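Cd74 was the only gene past under edgeR with DESeq2 size factors or TMMwsp, and with a marker minimum of 20000 CPM. The number of genes past was 819 by DESeq2, 4 with no filter on low counts, 2 with a filter of 10 CPM, 2 with a marker minimum of 1000 CPM, 63 with none and 4 with cells thinned to 1000000 counts. Where 4 passed, they were Cd74, H2-Ab1, H2-Aa and H2-Eb1, and where 2 passed, Cd74 and H2-Ab1. Those 4 genes also passed with no marker minimum and with no replicate block. The number past was 12 with no replicate block, so the pairing changed the count, and it was 1 to 2 with each sample left out (2 without replicate 6, where H2-Ab1 also passed). It was 0 without leukocyte-bearing cells (471 at an unadjusted p under 0.05), 0 in lung (59 unadjusted) and 0 without class II-high cells (453 unadjusted), all by edgeR. The class II median was 8.73 with no marker minimum, 2.27 without leukocyte-bearing cells, 4.42 in lung, 5.89 without cells with B cell genes and 0.70 without class II-high cells, and 6.56 to 7.82 with each sample left out. For these shifts the cause was not tested, except that lung holds only 2 pairs, and that leaving out cells on Cd74 itself lowers Cd74 by construction. Cd74 had a log2 difference of 5.29 in lung (edgeR adjusted p = 1), -0.51 without class II-high cells (edgeR adjusted p = 0.999) and 4.82 without cells with B cell genes (edgeR adjusted p = 0.00913). Cells with B cell genes were those whose sum of Cd79a, Cd79b and Ms4a1 was 10 CPM or more, and their exclusion, like that of class II-high cells, was chosen after seeing the data. The share difference set at 10 CPM was -14.9 points at 1 CPM, -0.011 points after thinning and -6.38 points without leukocyte-bearing cells, and 2.06 to 9.98 with each sample left out. The log2 depth difference was 0.0438 at a marker minimum of 20000 CPM and -0.15 to 0.00052 with each sample left out (positive without replicate 2), while that of detected genes was 263.9 to 402.5. The cause of these changes of sign was not tested. Of 76 named genes tested, 26 that had not passed did so in at least 1 alternative, and 41 changed sign in an alternative while past in neither fit. The median of all genes was 0.49 with no filter and -0.54 in lung. With 3 to 5 CTC cells in 4 of the samples, the CTC sums limit every comparison.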

Other observations

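Across the CTC side, 19 of the 27 cells had leukocyte, B cell and macrophage sums all under 10 CPM, and 95 of the 142 DP cells below the class II limit did. Tumor-high DP cells of replicate 9, which were not compared, had 1664 CPM of Cd74 and 75.1 CPM of Ciita when pooled, against 16.1 and 0.0252 CPM in those of replicate 7.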
